A study of Mus musculus with 6 samples.

Results

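The endoplasmic reticulum (ER) chaperones and genes of the unfolded protein response are described here in mast cells of fetal mouse skin, as 36 genes chosen by symbol out of 55809 gene rows. All 36 were found in the count tables, 1 of them under a newer symbol (Ero1l is listed as Ero1a), and all 36 passed the filter on low counts that left 16716 genes for testing. The prenatal stress group was offspring of dams kept in restraint tubes and lit brightly for 30 minutes, 3 times each day, from embryonic day 13 to 18 in the treatment protocol and from 13.5 to 18.5 in the design text. The control group was offspring of dams left undisturbed. Both groups were C57BL6J fetuses of both sexes, taken at embryonic day 18.5, and each had 3 libraries of polyadenylated RNA, 1 per pool of 4 mice. The cells were sorted as CD45+ F4/80- CD64- CD117+ ST2+ after 45 minutes of enzymatic digestion of the skin. The labels do not say how many litters a pool drew on, and the p-values speak of variation among pools.

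Proteins bound for granules, the membrane or the outside of the cell enter the ER through the Sec61 channel and fold there with the help of chaperones and of enzymes that form disulfide bonds. When unfolded protein builds up, the membrane sensors IRE1, PERK and ATF6 start the unfolded protein response, which raises chaperone and degradation genes through XBP1, ATF4 and cleaved ATF6, and slows translation. Mast cells fill their granules with proteases made on this route. The series was examined for whether higher granule protein mRNA came with higher mRNA of the ER genes. Splicing of the Xbp1 message by IRE1, cleavage of ATF6 and phosphorylation by PERK leave no trace in counts per gene and were not measured.

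Many chaperone genes carry in their promoters the ER stress response element (ERSE), the site through which ATF6 and XBP1 act together with the factor NF-Y. RefSeq promoters (GRCm38.p6, 250 bases before to 50 after the start) were found for 31 of the 36 genes, and both strands were searched for CCAAT and CCACG with 9 bases of any kind between them. The element was in the promoters of 8 of these 31 genes, against 0.119% of the 32851 promoters of the table. The sites are shown because the chaperone results below turn on these genes; each is in the direction of its gene, with 10 bases on either side and the element in capitals, and where it lies on the opposite strand the capitals run from CGTGG to ATTGG.
Hspa5 (chr2:34772015-34772053, plus strand): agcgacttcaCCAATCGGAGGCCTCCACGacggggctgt
Hsp90b1 (chr10:86705628-86705666, minus strand): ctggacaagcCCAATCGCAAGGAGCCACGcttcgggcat
Hsp90b1 (chr10:86705523-86705561, minus strand): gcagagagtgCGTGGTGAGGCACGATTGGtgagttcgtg
Calr (chr8:84847065-84847103, minus strand): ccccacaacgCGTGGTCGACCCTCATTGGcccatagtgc
Canx (chr11:50325790-50325828, minus strand): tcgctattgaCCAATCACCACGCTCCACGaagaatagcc
Pdia6 (chr12:17266481-17266519, plus strand): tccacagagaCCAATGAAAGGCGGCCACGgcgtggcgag
Dnajc3 (chr14:118937817-118937855, plus strand): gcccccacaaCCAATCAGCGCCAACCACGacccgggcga
Creld2 (chr15:88819510-88819548, plus strand): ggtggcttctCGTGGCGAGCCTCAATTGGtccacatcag
Syvn1 (chr19:6046522-6046560, plus strand): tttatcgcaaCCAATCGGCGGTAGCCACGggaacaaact

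A second form of the element, ATTGG and CCACG with 1 base of any kind between them, was in the promoter of Herpud1 alone among the 31 genes and in 0.0365% of the table's promoters. Neither TGACGTGG, a site known for XBP1, nor TGATGNAAT, where N is any base, a site known for ATF4, was in any of the 31 promoters, and these were in 0.676% and 0.965% of the table. These matches are descriptions of the windows searched. Only these exact letters were looked for, so other forms of the sites may be present.
Herpud1 (chr8:94386367-94386397, plus strand): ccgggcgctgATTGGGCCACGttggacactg

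The whole promoter windows are printed for Hspa5, the most abundant of the chaperone genes per length, and Ero1a, the only member that passed the test. These genes were picked after the values were seen, and any link between the element and their levels was not tested. Capitals mark the ERSE in Hspa5, whose element starts 65 bases before the start of the gene, and the window of Ero1a held none.
Hspa5 (chr2:34771840-34772139, plus strand): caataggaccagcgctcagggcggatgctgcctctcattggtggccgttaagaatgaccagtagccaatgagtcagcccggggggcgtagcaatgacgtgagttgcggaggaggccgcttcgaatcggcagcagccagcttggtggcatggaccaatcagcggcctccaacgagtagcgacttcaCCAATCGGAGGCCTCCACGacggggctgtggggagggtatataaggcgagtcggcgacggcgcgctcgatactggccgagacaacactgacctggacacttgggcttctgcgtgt
Ero1a (chr14:45318523-45318822, minus strand): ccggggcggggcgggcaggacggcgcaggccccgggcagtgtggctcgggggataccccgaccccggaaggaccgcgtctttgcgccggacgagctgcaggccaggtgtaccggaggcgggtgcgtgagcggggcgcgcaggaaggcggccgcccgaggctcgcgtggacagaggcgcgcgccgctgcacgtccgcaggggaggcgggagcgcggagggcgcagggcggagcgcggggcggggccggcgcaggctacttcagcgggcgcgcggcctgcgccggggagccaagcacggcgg

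The libraries held 51710555 to 57806119 gene counts in prenatal stress and 54616570 to 74735139 in control. Levels are given as CPM, a library's counts set to a common size with TMM factors, and the fold changes below are relative to that scaling. When library totals alone set the size, the median log2 fold change over all genes was -0.119. The mast cell markers Kit, Il1rl1, Cpa3, Cma1, Tpsb2, Mcpt4, Hdc and Gata2 were each above 1000 CPM in every library. Lower levels were seen for Ms4a2, at 129 to 241 CPM, and Mitf, at 102 to 146 CPM. Fcer1a was the lowest, at 14.7 to 34.8 CPM in prenatal stress and 5.36 to 6.25 CPM in control. All 11 markers of the mast list had fold changes above 0, also with library totals as the only scaling. Their median was 0.45, and 6 were called higher (54.5%, against 4.34% of all genes tested). The gene lists here and below were chosen with earlier results of these data known, so such shares are descriptions. Macrophage transcripts were present although the sort was against macrophages, with none of the 17 markers at 0 in any library. Their summed level was 7556, 6914 and 11183 CPM in prenatal stress replicates 1, 2 and 3, against 9382, 10795 and 10638 CPM in control replicates 1, 2 and 3. Of the 17, 1 was called higher and 1 lower (11.8%, against 6.19% of all genes tested). Fold changes were below 0 for 14 of them, also with library totals as the only scaling, and the groups of the sum overlapped. In sorted bulk RNA, fewer cells of a type and less RNA per cell cannot be told apart. Fibroblast markers, from cells that also secrete much protein, summed to 166 to 312 CPM in prenatal stress and 176 to 205 CPM in control. B lineage and plasma cell markers summed to 27.5 to 34.6 CPM in prenatal stress and 49.2 to 56.7 CPM in control, so these groups did not overlap. Keratinocyte and red cell markers summed to at most 14.9 and 18.6 CPM in any library.

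Of the 36 genes, 1 was called higher after prenatal stress, none was called lower and 35 did not pass at an adjusted p of 0.05 (edgeR's quasi-likelihood test, Benjamini-Hochberg over all genes tested). At an unadjusted p under 0.05 there were 7 members, 19.4% of the 36, against 24.8% of all genes. With limma-voom 1 member was called higher and none lower, beside 703 higher and 294 lower of all 16716 genes. With DESeq2 2 members were called higher and none lower, beside 1264 higher and 725 lower of all 16716 genes. In the edgeR fit 4.34% of all genes tested were called higher and 1.85% lower, 6.19% in either direction. The edgeR count among the 36 genes is not above that background. Their median log2 fold change was 0.03, against -0.00 over all genes. Fold changes were above 0 for 22 members and below 0 for 14; with library totals as the only scaling these counts were 10 and 26. The 3 prenatal stress libraries lay on one side of the 3 controls in 7 members, 5 higher and 2 lower, which is 19.4% against 30.6% over all genes (16.0% higher and 14.5% lower).

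**Figure D1:**
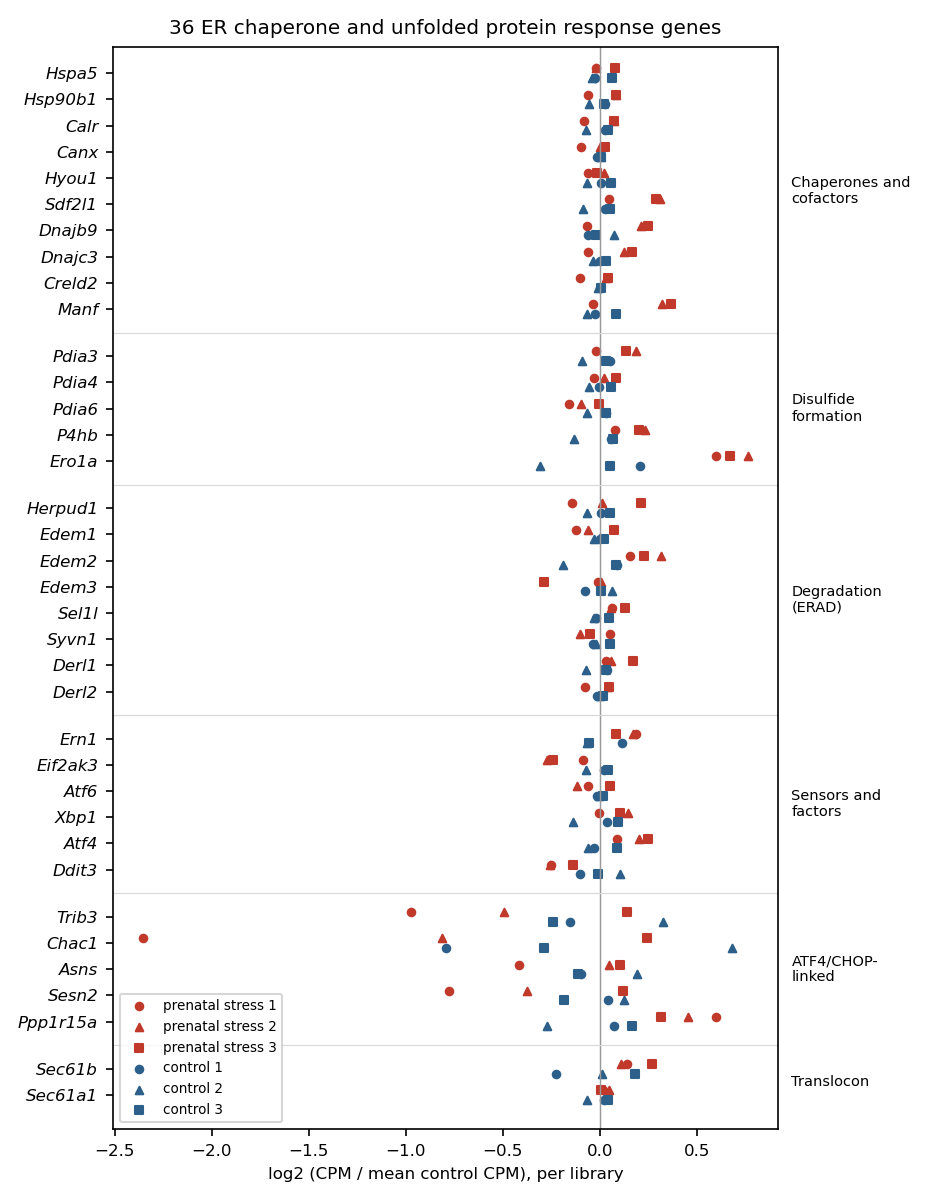
Each row is 1 of the 36 genes, grouped by role, and each point 1 library, placed by the log2 ratio of its CPM to the mean CPM of the 3 control libraries (red, prenatal stress; blue, control; the shape gives the replicate number, and some points lie under others). Most rows are mixed within about 0.25 of the line at 0, while the red points of Ero1a and Ppp1r15a lie right of all blue points and those of Ddit3 and Eif2ak3 left of them.

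The genes of the ER are abundant in these cells. Levels between genes are compared per kilobase of annotated exon. Hspa5, which encodes BiP, the ER member of the Hsp70 family and the partner that holds the 3 stress sensors inactive, was highest over all 6 libraries, at 596 ± 24.0 CPM per kb in prenatal stress and 590.3 ± 22.3 in control (SD, n = 3 pools each, as for all means below). It stood above 99.7% of tested genes with a known length. Ppp1r15a, at 623 ± 61.4 CPM per kb in prenatal stress and 453 ± 69.1 in control, came next, followed by Calr, P4hb and Ero1a. The lowest were Sesn2, Trib3 and Chac1, with Chac1 at 0.724 ± 0.556 CPM per kb in prenatal stress and 1.12 ± 0.597 in control. Neighbours in this order were often closer than their spread, among them Pdia3 and Hsp90b1, at 291 ± 21.1 and 268 ± 15.3 CPM per kb in prenatal stress.

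**Figure D2:**
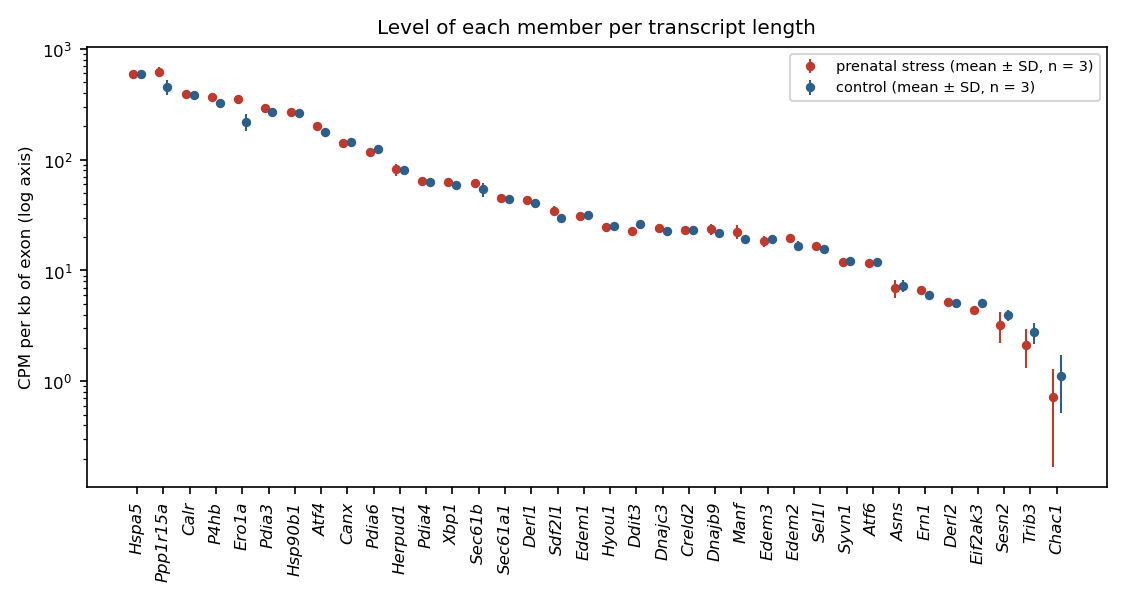
Level of each of the 36 genes in CPM per kilobase of exon on a log axis, ordered by the mean over all 6 libraries; points are group means and bars the SD over 3 libraries (red, prenatal stress; blue, control). Levels run from Hspa5, at 596 in prenatal stress and 590.3 in control, to Chac1, at 0.724 and 1.12, and the groups stand apart most clearly at Ero1a, 352 ± 20.4 in prenatal stress and 219.8 ± 39.0 in control.

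Among the 10 chaperones and their cofactors none passed in edgeR or DESeq2, and 1, Sdf2l1, had an unadjusted p under 0.05. Hspa5 was at 2463, 2459.5 and 2637 CPM in the prenatal stress libraries, against 2455, 2429.8 and 2604.5 CPM in the controls. The groups overlapped and were almost level, with a log2 fold change of 0.01 ± 0.07 (SE; 95% interval -0.13 to 0.16; adjusted p = 0.924, edgeR). Calr, which encodes calreticulin, a lectin chaperone that holds calcium, was at 1048, 1167 and 1166 CPM in prenatal stress and 1128, 1056 and 1139.8 CPM in control, and its interval was -0.13 to 0.18.

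Hsp90b1, the ER member of the Hsp90 family, had a log2 fold change of 0.04 ± 0.07. Canx, the membrane-bound lectin chaperone calnexin, was at -0.02 ± 0.06, and Hyou1, a nucleotide exchange partner of BiP, also at -0.02 ± 0.06. Dnajc3, a BiP cochaperone that also restrains PERK, was at 0.08 ± 0.07, and Creld2, an ER protein known from ER stress, at -0.01 ± 0.06. The intervals of these 5 genes lay between -0.16 and 0.23, so a rise or fall by the fold change of Ero1a was outside each of them.

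The other 3 members of the chaperone group had higher values in prenatal stress that did not pass. Sdf2l1, a partner of BiP and its J proteins, was at 34.1, 41.0 and 40.4 CPM in prenatal stress and 33.6, 31.1 and 34.3 CPM in control. Manf, a secreted ER stress protein, was at 65.5, 83.9 and 86.8 CPM in prenatal stress and 66.1, 64.3 and 71.2 CPM in control. Dnajb9, the J protein ERdj4 that returns IRE1 to its inactive state, was at 52.6, 63.8 and 65.4 CPM against 52.7, 57.9 and 54.3 CPM in control. In all 3 genes prenatal stress replicates 2 and 3 were above every control and replicate 1 was below the highest control. Their log2 fold changes were 0.22 ± 0.08 (adjusted p = 0.136), 0.23 ± 0.10 (0.202) and 0.14 ± 0.09 (0.346, edgeR for all 3). Without prenatal stress replicate 1, Manf passed at 0.34 (adjusted p = 0.0426).

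The 8 genes whose ERSE is printed above stayed in a narrow range, from -0.08 to 0.08 on the log2 scale with a median of 0.00, and none passed or had groups that did not overlap. The 23 members with a promoter and no ERSE of the first form, among them Herpud1 with the second form, ranged from -0.60 to 0.68. Of these 1 was called higher (4.35%) and 7 had groups that did not overlap (30.4%), shares near those of all genes, 6.19% and 30.6%. Outside the 36 genes, 13 tested genes had the element in their promoter, with a median of -0.09, and 3 of them had groups that did not overlap. The split by motif was made after the values were seen and was not tested.

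Ero1a was the member that rose. It encodes ERO1 alpha, the oxidase that reoxidizes protein disulfide isomerase so that disulfide bonds can go on forming, and it is also known as a gene induced by low oxygen. It was at 1758, 1973 and 1852.5 CPM in prenatal stress libraries, against 1343.5, 937 and 1204 CPM in control libraries. All 3 prenatal stress values lay above all controls, which were themselves spread more widely. The log2 fold change was 0.68 ± 0.12 (95% interval 0.40 to 0.96, adjusted p = 0.0189, edgeR), a level 1.60 times the control. The call ended without prenatal stress replicate 2 (adjusted p = 0.0757) or control replicate 3 (0.0599) and held without each of the other 4 libraries (up to 0.0480). With the mean of the macrophage list as a covariate the value was 0.60 (adjusted p = 0.0316).

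The 4 disulfide isomerase genes, whose products ERO1 serves, did not pass. P4hb, which encodes the founding member of the family, was at 977, 1087 and 1065 CPM in prenatal stress and 962, 844 and 969 CPM in control. Its groups did not overlap, yet prenatal stress replicate 1 and control replicate 3 were close, and the log2 fold change was 0.17 ± 0.08 (adjusted p = 0.202). Pdia3, which works with calnexin and calreticulin on glycoproteins, was at 0.10 ± 0.07, Pdia4 at 0.03 ± 0.06 and Pdia6 at -0.08 ± 0.06. The upper ends of the intervals of P4hb, Pdia3, Pdia4 and Pdia6 were 0.35, 0.27, 0.16 and 0.06, each under the lower end for Ero1a. With library totals as the only scaling Pdia6 was called lower (-0.20, adjusted p = 0.0492).

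**Figure D3:**
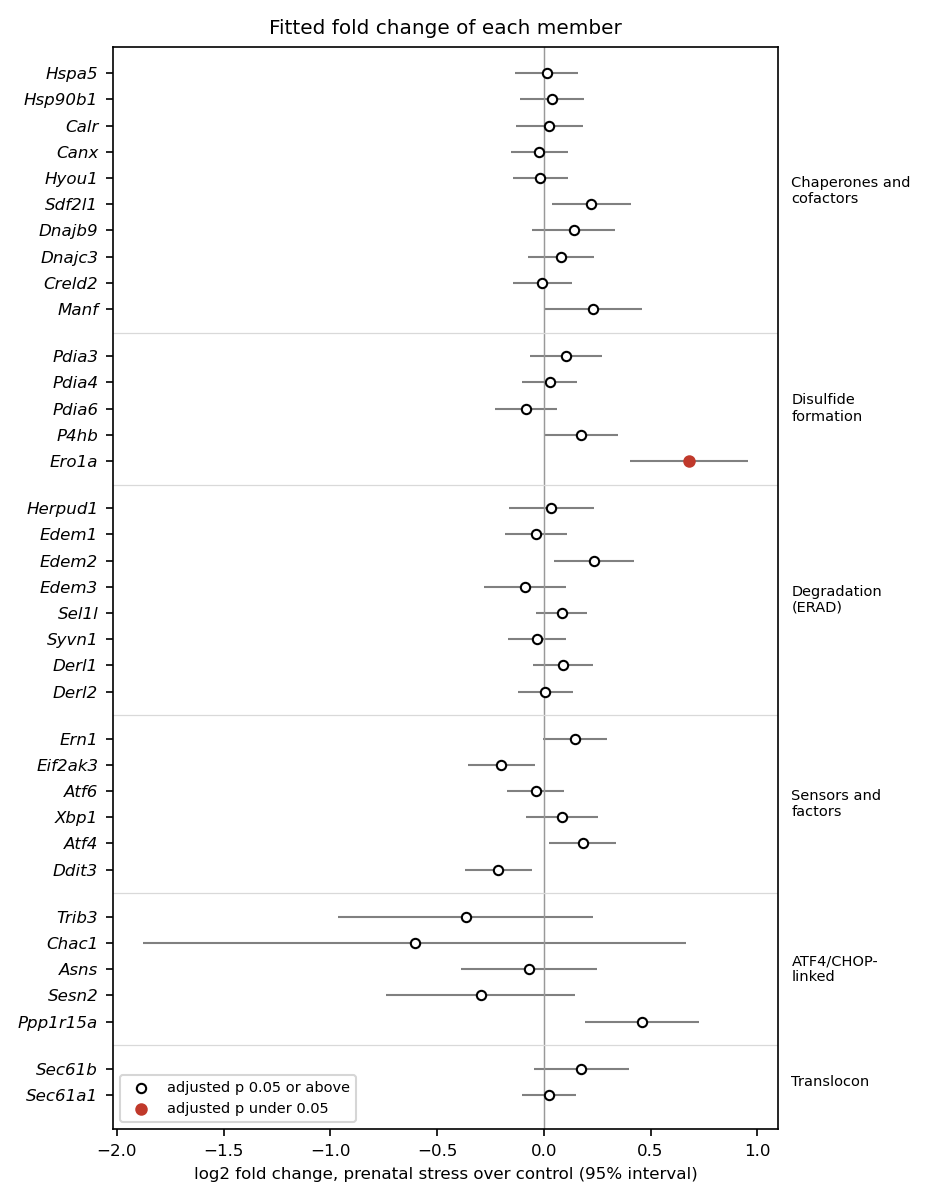
Log2 fold change of prenatal stress over control for each of the 36 genes, by role, with its 95% interval from the edgeR fit; the filled red point passed an adjusted p of 0.05 and open points did not. The red point is Ero1a at 0.68, and the widest intervals belong to Chac1, Trib3 and Sesn2.

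Of the 3 sensors, Ern1, which encodes IRE1 alpha, was at 55.5, 55.0 and 51.6 CPM in prenatal stress and 52.7, 46.6 and 47.0 CPM in control, with overlapping groups (log2 fold change 0.15 ± 0.07, adjusted p = 0.206). Eif2ak3, which encodes PERK, was at 28.9, 25.4 and 26.0 CPM in prenatal stress and 31.1, 29.2 and 31.6 CPM in control. All its prenatal stress values were under all controls, by a margin smaller than the spread within either group, and it did not pass (-0.20 ± 0.07, adjusted p = 0.124). Atf6, the membrane-bound factor that is cleaved under stress, was at 107, 102 and 115 CPM in prenatal stress and 110.03, 111 and 112 CPM in control (-0.04 ± 0.06, adjusted p = 0.729).

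The transcription factors downstream did not pass either, and their signs were mixed. Xbp1, whose message IRE1 splices, was at 191, 211 and 205 CPM in prenatal stress and 196, 173 and 203 CPM in control (0.08 ± 0.07, adjusted p = 0.514). Atf4, which is controlled mainly at translation, was at 443, 480.05 and 496 CPM in prenatal stress and 409, 400.4 and 443.5 CPM in control. Prenatal stress replicate 1 and control replicate 3 had nearly the same level of Atf4, and the others were apart (0.18 ± 0.07, adjusted p = 0.146). Ddit3, which encodes CHOP, a factor tied to cell death under prolonged stress, was at 37.6, 37.5 and 40.7 CPM in prenatal stress and 41.8, 48.2 and 44.5 CPM in control. Its groups did not overlap and its value was -0.21 ± 0.07 (adjusted p = 0.0985). It passed without prenatal stress replicate 3 (-0.26, adjusted p = 0.0407) and with library totals as the only scaling (-0.33, 0.0363), where Eif2ak3 passed too (-0.31, 0.0341).

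The 5 genes linked to ATF4 and CHOP differed most among themselves. Ppp1r15a encodes GADD34, the phosphatase subunit that reverses the block of translation set by PERK and related kinases. It was at 2015, 1822.5 and 1655 CPM in prenatal stress libraries, against 1399, 1103.5 and 1492 CPM in control libraries. The groups did not overlap, and the log2 fold change of 0.46 ± 0.12 was just short of the threshold (95% interval 0.19 to 0.73, adjusted p = 0.0546, edgeR). It passed with DESeq2 (adjusted p = 0.00203), with no filter on low counts (0.00233), with a stricter filter (0.0484) and without prenatal stress replicate 3 (0.0157). With the macrophage covariate it was at 0.36 (adjusted p = 0.154).

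The other 4 had negative values and wide intervals. Trib3, a pseudokinase that CHOP induces, was at 2.99, 4.18 and 6.48 CPM in prenatal stress and 5.29, 7.38 and 4.98 CPM in control. Chac1, a glutathione-degrading enzyme, was at 0.357, 1.04 and 2.16 CPM in prenatal stress and 1.05, 2.93 and 1.50 CPM in control. Sesn2, a stress-induced inhibitor of TORC1 signalling, was at 8.01, 10.6 and 14.9 CPM in prenatal stress and 14.2, 15.0 and 12.1 CPM in control. In each of these 3 genes prenatal stress replicate 3 was among the controls and replicate 1 was the lowest of all 6 libraries.

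Their log2 fold changes were -0.37 ± 0.26, -0.60 ± 0.56 and -0.30 ± 0.20, none of which passed, and that of Asns, asparagine synthetase, was -0.07 ± 0.14. Without prenatal stress replicate 3, Trib3 (-0.72, adjusted p = 0.0428) and Sesn2 (-0.57, 0.0196) were called lower. Prenatal stress replicate 3 was also the library with the highest summed macrophage markers of all 6, as given above, while prenatal stress replicates 1 and 2 were the lowest in that sum. The covariate is instead the mean log2 CPM of the list, where prenatal stress replicate 3 was not the highest. That mean was 7.742, 7.653 and 8.115 in prenatal stress replicates 1, 2 and 3, against 7.925, 8.121 and 8.119 in control replicates 1, 2 and 3. With the macrophage covariate the values were -0.04 for Trib3, 0.07 for Chac1 and -0.09 for Sesn2, and none passed.

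Among the 8 genes of ER-associated degradation none passed in edgeR or DESeq2 and 1, Edem2, had an unadjusted p under 0.05. The interval of 7 of them lay within 1.25-fold in either direction, a width chosen after the values were seen. Edem2, which helps trim mannose from misfolded glycoproteins, was at 64.3, 71.8 and 67.7 CPM in prenatal stress and 61.4, 50.7 and 61.2 CPM in control. Its groups did not overlap (0.23 ± 0.08, adjusted p = 0.125). The related genes Edem1 and Edem3 were at -0.04 ± 0.06 and -0.09 ± 0.08.

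Sel1l and Syvn1, which encode the adaptor and the ubiquitin ligase of the main degradation complex, were at 0.08 ± 0.05 and -0.03 ± 0.06. The groups of Sel1l did not overlap, from 138 to 146 CPM in prenatal stress and from 130.4 to 137 CPM in control. Derl1 and Derl2, channel proteins of the same complex, were at 0.09 ± 0.06 and 0.01 ± 0.06. Herpud1, a stress-induced scaffold of that complex, was at 0.04 ± 0.09 and varied most between prenatal stress libraries, at 169, 188 and 216 CPM, against 188, 179 and 194 CPM in control. The translocon genes Sec61a1, the pore subunit, and Sec61b, a small accessory subunit, were at 0.02 ± 0.06 and 0.18 ± 0.10, and 10.1% of the 75-base sequences of Sec61b also occur in another annotated gene, the highest share among the 36.

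These data place close limits on most of the 36 genes. The 95% interval lay within 1.25-fold in either direction for 21 of them (58.3%), against 34.1% of all genes tested. The members had a median level of 129 CPM, against 11.3 CPM over all genes, and a median SE of 0.07 on the log2 scale, against 0.11. None of the 5 ATF4- and CHOP-linked genes was among the 21.

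Granule protein mRNA was higher in the same libraries. Over a list of 21 granule protein genes, the summed level was 77294, 88931 and 73016 CPM in prenatal stress libraries, against 59132, 50833 and 60402 CPM in control libraries. The groups did not overlap, and the ratio of means was 1.40. One of the 21, Serpinb1a, encodes a serpin of the cytosol that does not pass through the ER; without it the ratio was also 1.40. Of these genes 8 were called higher (38.1%, against 4.34% of all genes tested), none lower, and 13 did not pass. The list was chosen with earlier results of these data known, so this share describes it and carries no test. Their median log2 fold change was 0.40. Mcpt4, a chymase, averaged 3335 ± 669.5 CPM in prenatal stress and 1620.3 ± 221 CPM in control (1.04 ± 0.15, adjusted p = 0.00946, edgeR). Its call held without any single library. Cpa3, mast cell carboxypeptidase, and Cma1, another chymase, the most abundant of the list in CPM, were called at 0.55 ± 0.11 (0.0286) and 0.40 ± 0.10 (0.0463). Both calls held without prenatal stress replicate 3 and ended without any other single library, with adjusted p from 0.0575 to 0.141. With the macrophage covariate 3 of the 8 calls ended, those of Cpa3 (0.42, adjusted p = 0.0831), Cma1 (0.31, 0.149) and Srgn (0.35, 0.0514). Of the mast markers, Cpa3, Cma1, Tpsb2 and Mcpt4 are also in the granule list. The others all had fold changes above 0. The receptor genes Il1rl1, which encodes ST2, Ms4a2 and Fcer1a were called, at 0.45 ± 0.10 (adjusted p = 0.0312, edgeR), 0.58 ± 0.10 (0.0152) and 2.26 ± 0.29 (0.00666). Kit, at 0.23 ± 0.10 (adjusted p = 0.187), Hdc, at 0.40 ± 0.10 (0.0562), Gata2, at 0.26 ± 0.10 (0.155), and Mitf, at 0.16 ± 0.11 (0.411), did not pass. Srgn, the proteoglycan core serglycin, was called at 0.43 ± 0.07 (adjusted p = 0.0175, and up to 0.0684 without prenatal stress replicate 2 or a control library). Serpinb1a was called at 0.57 ± 0.09 (0.0114), Ctsg, cathepsin G, at 0.46 ± 0.08 (0.0169) and Mcpt8, a basophil protease, at 0.50 ± 0.09 (0.0169). The calls of Ctsg and Mcpt8 ended without prenatal stress replicates 1 or 2 or control replicates 1 or 2, with adjusted p up to 0.0866 and 0.0750. Tpsb2, a tryptase among the 5 most abundant, did not pass (0.45 ± 0.12, adjusted p = 0.0539).

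The summed level of the 10 chaperones and cofactors did not follow between the groups. It was 5614, 5948 and 6135 CPM in prenatal stress libraries, against 5803, 5643.5 and 5988 CPM in control libraries. The groups overlapped and the ratio of means was 1.01. Prenatal stress replicate 2 had the most granule mRNA and replicate 3 the least of the prenatal stress libraries, while replicate 3 had the highest chaperone sum. Among the controls the order was the same for both sums, with replicate 2 the lowest and replicate 3 the highest. Per 1000 counts of granule mRNA there were 72.6, 66.9 and 84.0 chaperone counts in prenatal stress, against 98.1, 111 and 99.1 in control. These groups did not overlap, and the ratio does not depend on the scaling of the libraries. It combines the higher granule sum with the nearly level chaperone sum and is not a separate result. Much of the granule sum was Cpa3 and Cma1, at 36202 and 20065 CPM in prenatal stress and 24736 and 15205 CPM in control. The mast markers given above moved in the same libraries, and their part in this ratio was not tested.

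All 36 genes together summed to 13959, 14678 and 14631 CPM in prenatal stress libraries, against 13199, 12050 and 13430 CPM in control libraries, a ratio of means of 1.12. Without Ero1a the groups overlapped and the ratio was 1.07, and without Ero1a and Ppp1r15a it was 1.03. Per 1000 granule counts there were 22.7, 22.2 and 25.4 counts of Ero1a in prenatal stress and 22.7, 18.4 and 19.9 in control. For Ppp1r15a there were 26.1, 20.5 and 22.7 in prenatal stress and 23.7, 21.7 and 24.7 in control, so the groups overlapped for both genes. These sums are descriptions and carry no test.

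**Figure D4:**
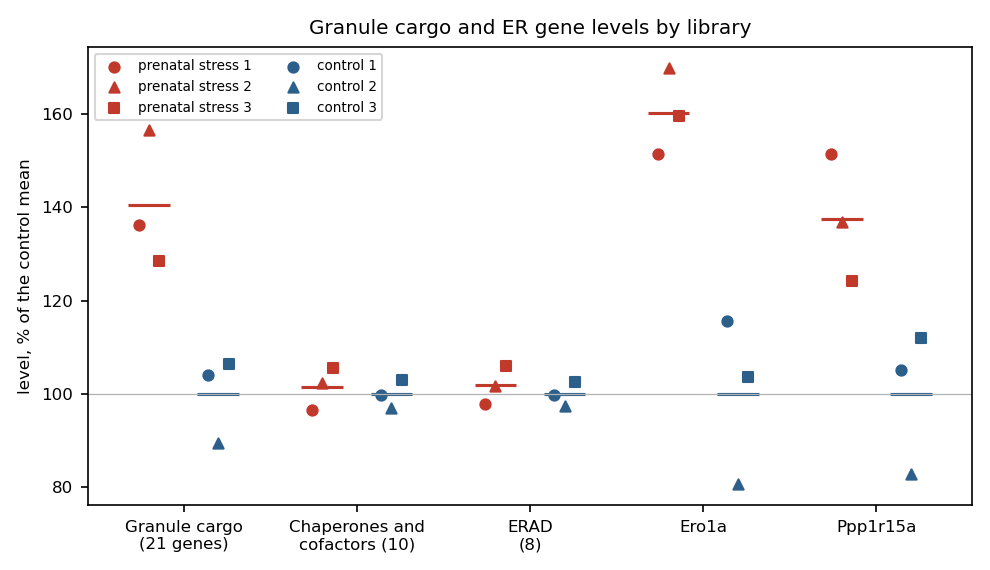
Summed CPM of the granule protein list, the 10 chaperones and cofactors and the 8 degradation genes, and CPM of Ero1a and Ppp1r15a, as a percentage of the control mean; each point is 1 library (red, prenatal stress; blue, control) and each line a group mean. Granule mRNA, Ero1a and Ppp1r15a stand above all controls in all 3 prenatal stress libraries, with means 1.40, 1.60 and 1.37 times the control, while the chaperone and degradation sums are mixed.

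Other genes of the same pathways were taken from 5 lists of 135 genes in all, of which 130 were tested. Of these 12 were called higher and 2 lower, 10.8% against 6.19% of all genes, with a median of 0.08. By direction, 4.34% of all genes tested were called higher and 1.85% lower. Fold changes were above 0 for 90 of the 130 and below 0 for 40. The groups did not overlap in 55 of them, 47 higher and 8 lower, which is 42.3% against 30.6% of all genes. Among 29 further lumenal folding genes 4 were called higher (13.8%) and none lower. Erp44, which retains ERO1 proteins in the early secretory pathway, averaged 102 ± 6.24 CPM in prenatal stress and 81.4 ± 3.51 CPM in control (0.33 ± 0.06, adjusted p = 0.0228, edgeR). Prdx4, an ER peroxidase that uses the peroxide ERO1 makes, was at 92.6 ± 7.10 CPM in prenatal stress and 75.3 ± 3.64 CPM in control (0.30 ± 0.07, 0.0423). The others were Hspa13, an Hsp70 relative of the ER, at 816 ± 76.2 CPM in prenatal stress and 554 ± 78.2 CPM in control, and Rcn2, a calcium-binding reticulocalbin, at 80.4 ± 8.75 CPM in prenatal stress and 60.2 ± 5.06 CPM in control.

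Of 21 further degradation genes tested 2 were called higher (9.52%, against 4.34% of all genes) and none lower. They were Erlec1, a lectin of the degradation complex (0.44 ± 0.09), and Selenos, a selenoprotein that binds derlins (0.37 ± 0.08). The translocation and glycosylation list had 2 of 27 called higher (7.41%) and none lower. These were Spcs3, a signal peptidase subunit (0.36 ± 0.08), and Sec62, a partner of the Sec61 channel (0.26 ± 0.06). The median log2 fold change of that list was 0.14, with 25 of the 27 genes above 0 and 2 below. Its groups did not overlap in 18 genes, 17 higher and 1 lower, which is 66.7% against 30.6% of all genes. With library totals as the only scaling Sec62 (adjusted p = 0.106) and Prdx4 (0.0902) did not pass. Of 20 further sensors and regulators tested 1 was called higher and none lower, Creb3l2, a membrane-bound factor of the secretory pathway related to ATF6, at 405 ± 21.5 CPM in prenatal stress and 299.9 ± 28.6 CPM in control (0.43 ± 0.08, adjusted p = 0.0212, edgeR).

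Among 33 ATF4 targets tested outside the 36 genes, 3 were called higher and 2 lower, and the median was -0.00. In either direction this is 15.2%, against 6.19% of all genes. The 3 were Slc7a5 and Slc3a2, the chains of a large neutral amino acid transporter, and Cebpb, a transcription factor. Slc7a5 averaged 3501 ± 130 CPM in prenatal stress and 2468 ± 378 CPM in control (0.50 ± 0.11, adjusted p = 0.0334, edgeR). The 2 lower were enzymes of serine and one-carbon metabolism. Shmt2 was at 46.3, 48.4 and 47.7 CPM in prenatal stress and 62.0, 66.6 and 61.2 CPM in control (-0.42 ± 0.06, adjusted p = 0.00803), and Phgdh averaged 33.1 ± 4.25 CPM in prenatal stress and 48.1 ± 7.68 CPM in control (-0.54 ± 0.13, 0.0443). Of the 14 calls in the 5 lists, that of Shmt2 held without any single library. The other 13 all ended without prenatal stress replicate 2, with adjusted p from 0.0672 for Phgdh to 0.175 for Sec62, and each ended without at least 1 control library too. With the macrophage covariate 8 of the 14 ended, those of Erlec1, Hspa13, Rcn2, Sec62, Selenos, Spcs3, Slc3a2 and Slc7a5, with adjusted p from 0.0524 to 0.139 and no change of direction.

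**Figure D5:**
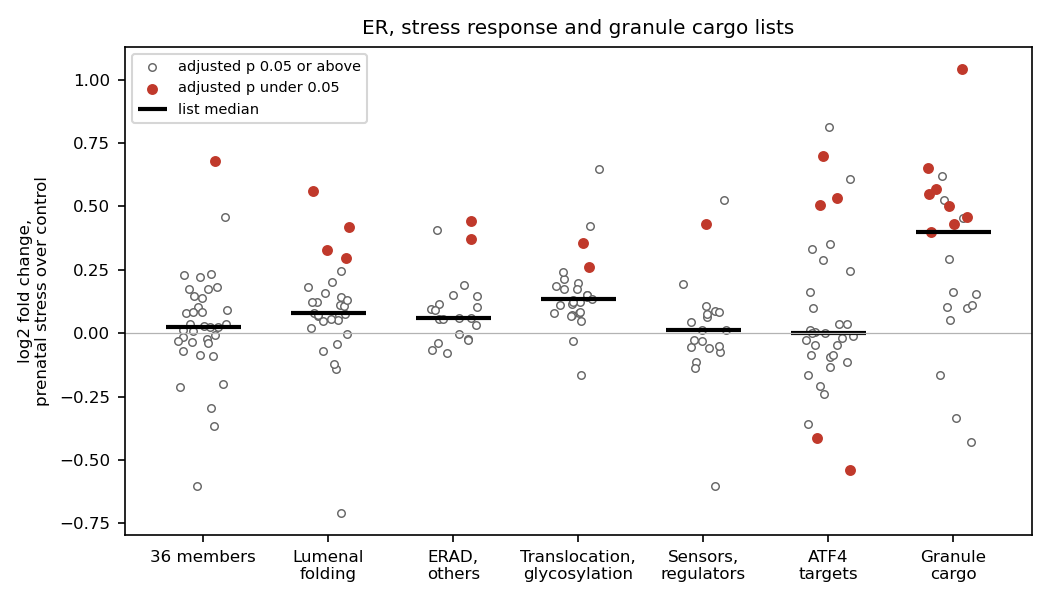
Log2 fold change of prenatal stress over control for the tested genes of each list (points, spread sideways for legibility; red, adjusted p under 0.05; open, not; black line, list median). The median of the 36 genes is 0.03 and that of the granule protein list 0.40, and the other ER lists lie between -0.00 and 0.14.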

How the data were processed

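Sorted cells were sequenced as stranded mRNA libraries, per the labels' protocols. The authors deposited 1 table of raw counts per gene symbol for each library; the submitters' processing notes name FastQC, STAR 2.4 and HTSeq 0.9.1 and list GRCm39 and mm10 without saying what each was used for. The strand setting and annotation release are not stated. The 5 rows that name no gene (18.6% to 20.3% of reads tallied) were left out. edgeR 4.0.16 (R 4.3.3) was used with filterByExpr (minimum count 10), TMM factors and the quasi-likelihood test without covariates, at an adjusted p of 0.05. SE is the log2 fold change divided by the root of the F statistic, and intervals use its degrees of freedom. The common biological coefficient of variation was 10.4%. Exon lengths and shared 75-base sequences came from GENCODE M21 (90.8% of gene rows had a length), and promoters from RefSeq GRCm38.p6. The fit was tested on simulated counts. Described in full by rule were members called, the 5 most abundant per length and the sensors and factors, and, in other lists, up to 4 called genes per direction. One called gene of the granule list is not reported here. Members and lists were chosen with earlier results of these data known. Alternatives were RLE factors, library totals, other filters, DESeq2 1.42.0, limma-voom 3.58.1, the replicate block, a macrophage covariate and leaving out each library.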

Additional observations from a re-analysis of the deposited data

How the results depend on the processing

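With library totals as the only scaling 2085 genes passed, 1532 of them lower, and 26.5% of calls were higher, against 70.0% of 1035 with TMM factors. In that setting 3 of the 36 members were called lower, beside 1532 of the 16716 genes tested. Of the 36, 16 had groups that did not overlap, and the share over all genes was not computed with that scaling. The members' median was -0.0889, against -0.119 over all genes. The log2 ratio of their sum was 0.0476 and that of the chaperone sum -0.0935. Without a filter 1933 genes passed (1123 higher, 810 lower), and DESeq2 gave 1989 (1264 higher, 725 lower). With no filter, with the stricter filter and with DESeq2, 2 members were called higher, Ero1a and Ppp1r15a. Over all genes the counts called higher were 1123 of 29276, 805 of 12693 and 1264 of 16716 in these settings. With the macrophage covariate 675 genes passed, 191 of them lower. Deviations of same-numbered libraries from their group means correlated at r = 0.151, -0.126 and 0.0545 for numbers 1, 2 and 3. Differently numbered libraries gave r from -0.307 to 0.249. The labels do not say whether the numbers pair libraries, and correlations over 3 libraries a group cannot decide it. With the replicate block 622 genes passed, 469 higher and 153 lower, and 1 member was higher. With that block 9 of the 14 calls in the 5 related lists and 3 of the 8 in the granule list did not pass. Leaving out each library gave 196 to 2647 genes (168 to 1330 higher, 23 to 1317 lower), 0 to 2 members higher, 0 to 3 lower, and a log2 ratio of the members' sum from 0.12 to 0.19. The log2 ratio of the granule sum, computed with RLE factors, library totals and each library left out, was 0.38 to 0.55, and that of chaperone counts per granule count, which scaling cannot move, was -0.56 to -0.39 with each library left out. The causes of these shifts were not tested.

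The count of calls depends on which libraries are present: 196 genes passed without prenatal stress replicate 2, 226 without control replicate 2 and 2647 without prenatal stress replicate 3. With 3 pools a group, single values short of the threshold are not shown to be level, and the intervals bound them. Chac1, the lowest member, was the least certain, at 1.19 ± 0.910 CPM in prenatal stress and 1.83 ± 0.978 CPM in control.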

Other observations

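The libraries of a group differed in how often they were the lowest or highest for the 36 genes. In prenatal stress, replicate 1 was the lowest of the 3 libraries for 25 of the 36 genes (69.4%), against 32.7% of all genes tested, and replicate 3 was the highest for 21 (58.3%, against 35.4%). In control, replicate 2 was the lowest for 24 of the 36 (66.7%), against 37.2% of all genes tested, and replicate 3 was the highest for 23 (63.9%, against 32.1%). Ppp1r15a, Ern1, Eif2ak3 and Syvn1 were instead highest in prenatal stress replicate 1. The summed level of the 34 members other than Ero1a and Ppp1r15a was 10186, 10882 and 11124 CPM in prenatal stress replicates 1, 2 and 3, against 10456, 10009 and 10733 CPM in control replicates 1, 2 and 3. The gap between replicates of a group was larger than the gap between the group means, 10731 and 10399 CPM in prenatal stress and control. What sets this spread was not tested.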
